A study of Mus musculus with 12 samples.

Results

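The genes that encode canonical histones, and the linker histone genes named with them, were examined on 12 mouse expression microarrays. A gene was a member where a probe set, the group of array probes read together as 1 value, carried exactly 1 gene symbol that began with H1f, H2ac, H2bc, H3c or H4c followed by a digit, or with Hist1h to Hist4h. By this rule, which goes by gene names, 29 of the 22180 genes measured were members. For H2ac21, which has 2 probe sets, the one with the higher mean was taken. There were 8 genes of linker histone H1, 6 of H2A, 8 of H2B, 7 of H4 and 0 of H3. Of the 29, 26 lie in the histone gene clusters, 21 of them on chromosome 13 and 5 on chromosome 3. The other 3 lie elsewhere, H1f7 on chromosome 15 and H1f8 and H1f10 on chromosome 6, so "clustered" describes most members and not these. RefSeq lists 67 coding genes with such names. Of those, 37 were measured only by probe sets that name several genes at once, since their sequences are nearly the same, and H1f0 was not analysed here. The probe sets that name several histone genes, 34 with distinct values, are described apart from the members, and histone H3 was measured only through them.

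Histones H2A, H2B, H3 and H4 form the core around which DNA is wound, and H1 binds the DNA that enters and leaves it. The clustered genes are transcribed mainly during S phase, driven by the coactivator NPAT, so that new histones meet newly copied DNA. Their mRNAs mostly end in a stem-loop bound by SLBP instead of a poly(A) tail, and they decay when DNA synthesis stops. Genes of replacement variants lie outside the clusters, and many, but not all, are made throughout the cell cycle and only as polyadenylated mRNAs. Some clustered genes are special to germ cells, such as H2ac1 and H2bc1, which encode the testis and oocyte histones TH2A and TH2B. Early embryonic and pluripotent cells divide fast and spend much of their cycle in S phase.

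Each of the 6 groups had 2 arrays. ESC are embryonic stem cells taken from E3.5 embryos (E, embryonic day), in a medium with LIF, 3 µM CHIR99021, a GSK3 inhibitor, and 1 µM PD0325901, a MEK inhibitor. EpiSC are epiblast stem cells from E5.75, given 12 ng/ml FGF2, 20 ng/ml Activin A and 20% KSR, a serum replacement. The rsEpiSC lines, from E5.75 in one group and E6.5 in the other, received 2.5 µM IWR1, an inhibitor of Wnt signalling, with a factor at 20 ng/ml whose name is missing from the labels. Every line was grown in N2B27 over mouse embryonic fibroblast feeders, whose RNA may be part of the sample. Epiblast, from which all later body tissues arise, was collected from embryos at E5.75 and at E6.5. The strain of the ESC and EpiSC arrays reads OCT4-deltaPE-GFP x C57BL/6, a green fluorescent Oct4 reporter cross, and on the other arrays its last number counts up by 1 from array to array, so it was not used. The labels do not say how many lines, cultures or embryos stand behind a pair of arrays, so each test measures only the spread between these arrays, which may be technical. The labels name amplification kits that by design start copying at poly(A) tails. How histone mRNAs without a tail entered the values is not stated, and its part in the results was not tested.

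All levels below are log2 signal as deposited, and each difference is a difference of mean log2 signal, so that 1 unit is a doubling. A difference passed where limma, a linear model fitted across all 22180 genes at once, gave an adjusted p under 0.05 after Benjamini-Hochberg adjustment over all genes. "Rose" and "fell" are used only for differences that passed, and they describe the first-named group against the second. The values of different probe sets are not compared as amounts of RNA, because probes differ in brightness. Over all genes, pairs of arrays correlated at 0.872 to 0.988. The spread of all genes on an array, its interquartile range, was 3.07 to 3.31 on the 8 cultured arrays and 2.23 to 2.68 on the 4 tissue arrays. That separation coincided with culture against tissue, so the comparisons between them are given with other scalings of the arrays. Naive pluripotency markers separated ESC from EpiSC as labelled, with 6 of 6 lower in EpiSC. Of 5 primed markers 5 were higher in EpiSC, and of 3 core markers, Pou5f1, Sox2 and Nanog, 3 were lower. In rsEpiSC E5.75 against EpiSC, where 3.87% of all genes passed, 1 core marker rose and 2 fell, and 1 primed marker rose and 0 fell. Against epiblast E5.75, where 21.5% passed, 2 core and 3 primed markers fell in rsEpiSC E5.75 and 0 rose. Markers of fibroblasts had array medians of 4.45 to 4.68 in ESC, 5.73 to 5.94 in EpiSC, 4.78 to 5.26 in rsEpiSC and 4.63 to 4.94 in tissue. Of those 10 markers 4 rose in EpiSC against ESC, where 6.29% of all genes passed. They were Tagln, at 8.94 and 9.44 in EpiSC and 4.91 and 4.73 in ESC, Acta2, at 8.65 and 9.18 against 5.75 and 5.83, Col1a2, at 6.29 and 9.02 against 3.21 and 3.51, and Mmp2. On the cultured arrays Dcn lay between 2.67 and 3.87, Lum between 2.18 and 2.72 and Postn between 2.40 and 4.17. In culture against tissue 4 of the 10 rose and 2 fell, where 42.3% of all genes passed. In rsEpiSC against epiblast of the same stage, 4 rose and 1 fell at E5.75 (21.5% of all genes passed). At E6.5, 1 rose and 1 fell (12.5%). In rsEpiSC E5.75 Col1a2 was 7.70 and 7.88, Tagln 7.06 and 7.61 and Mmp2 8.24 and 8.35. On the tissue arrays Col1a2, Tagln and Mmp2 lay between 4.11 and 5.87. The part of feeder RNA in the differences below was not tested. Array medians of 10 visceral endoderm markers were 3.98 to 4.52 in culture and 4.28 to 4.53 in tissue, and in that comparison 1 of them rose and 4 fell. Of 7 trophoblast markers 0 rose and 2 fell there, and 3 fell in rsEpiSC E6.5 against epiblast E6.5. The part of these cells in the results was not tested.

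The stretch of DNA just before a histone gene carries short elements that recur across the family. Windows of 300 bases, 250 before and 50 after the start of the gene, were found in RefSeq for 27 of the 29 members. Matches were searched on both strands for TATAAA, the TATA box, for CCAAT, for the octamer ATTTGCAT that binds Oct factors and marks H2B genes, and for AAACACAA, an element of H1 genes. TATAAA was found in 16 of the 27 windows against 14.2% of 27025 promoter windows of all genes, and CCAAT in 20 against 37.9%. The octamer was found in 8 of the 27 windows, 5 of 7 for H2B and 3 of 6 for H2A, against 1.8% of all windows. The H1 element was found in 4, 3 of 8 for H1 and 1 of 7 for H2B, against 2.0%. CCAAT was in 6 of 6 H2A windows and 7 of 7 H2B windows, but in 1 of 6 H4 windows. A match is a description of the letters, and the windows below (GRCm38.p6, capitals marking these matches) belong to the genes on which the results turn. The pair H2ac1 and H2bc1 are divergent neighbours that start back to back, and their windows share 220 bases, and each window holds 4 matches to CCAAT and 1 to the octamer.
H2ac1, chr13:23934187-23934486, plus strand: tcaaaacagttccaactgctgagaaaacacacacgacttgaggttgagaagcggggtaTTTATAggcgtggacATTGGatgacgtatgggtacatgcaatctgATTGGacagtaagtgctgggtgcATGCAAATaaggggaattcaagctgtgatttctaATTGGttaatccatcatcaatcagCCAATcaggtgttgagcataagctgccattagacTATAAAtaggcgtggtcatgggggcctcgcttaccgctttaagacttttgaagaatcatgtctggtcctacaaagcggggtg
H2bc1, chr13:23934107-23934406, minus strand: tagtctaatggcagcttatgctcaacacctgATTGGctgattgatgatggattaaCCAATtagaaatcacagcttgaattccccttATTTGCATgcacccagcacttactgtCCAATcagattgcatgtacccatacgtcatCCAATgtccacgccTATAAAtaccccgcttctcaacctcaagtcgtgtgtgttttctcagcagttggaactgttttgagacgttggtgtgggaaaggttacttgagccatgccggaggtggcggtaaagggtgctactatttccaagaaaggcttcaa
H2ac15, chr13:21753863-21754162, minus strand: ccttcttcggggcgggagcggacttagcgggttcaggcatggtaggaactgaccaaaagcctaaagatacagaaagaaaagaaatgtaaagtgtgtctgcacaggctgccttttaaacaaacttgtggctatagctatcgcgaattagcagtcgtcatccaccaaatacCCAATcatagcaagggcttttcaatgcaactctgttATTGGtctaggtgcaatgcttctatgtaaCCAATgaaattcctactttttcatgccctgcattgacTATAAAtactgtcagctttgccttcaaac
H1f2, chr13:23738557-23738856, plus strand: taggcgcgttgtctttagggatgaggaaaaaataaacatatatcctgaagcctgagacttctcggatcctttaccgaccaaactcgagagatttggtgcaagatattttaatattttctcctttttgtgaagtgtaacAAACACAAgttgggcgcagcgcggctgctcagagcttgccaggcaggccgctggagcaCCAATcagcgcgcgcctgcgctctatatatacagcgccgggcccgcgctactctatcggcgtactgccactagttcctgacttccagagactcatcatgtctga
H2bc12, chr13:22035571-22035870, plus strand: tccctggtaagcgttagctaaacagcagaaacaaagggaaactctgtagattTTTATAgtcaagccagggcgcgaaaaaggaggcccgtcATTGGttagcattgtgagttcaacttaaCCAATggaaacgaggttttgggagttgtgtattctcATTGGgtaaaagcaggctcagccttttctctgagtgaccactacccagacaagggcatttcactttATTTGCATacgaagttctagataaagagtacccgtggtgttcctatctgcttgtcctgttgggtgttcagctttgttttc
H1f10, chr6:87981433-87981732, minus strand, with none of the 4 motifs: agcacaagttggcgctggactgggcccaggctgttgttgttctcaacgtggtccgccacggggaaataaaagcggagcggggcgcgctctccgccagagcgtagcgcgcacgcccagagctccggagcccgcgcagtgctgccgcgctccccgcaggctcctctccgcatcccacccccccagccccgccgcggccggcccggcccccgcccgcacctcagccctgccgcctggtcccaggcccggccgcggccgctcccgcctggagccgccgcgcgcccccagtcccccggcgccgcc

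The members covered nearly the whole range of the arrays. By mean over the 12 arrays 15 members lay above the median gene and 14 at or below it. The brightest were H1f5 and H4c12, each above 99.3% of genes, followed by H2ac10, H2ac21 and H2bc12, and the dimmest were H4c2, H2ac12 and H2bc1. The median over the 8 H1 genes was 4.53 in ESC, 4.53 in EpiSC, 5.58 and 5.68 in the rsEpiSC groups (E5.75, then E6.5), and 4.91 and 4.75 in epiblast E5.75 and E6.5. For the 6 H2A genes the medians were 7.67, 8.08, 8.21, 9.01, 5.71 and 5.52 in the same order. A median level can go another way than the genes' own differences: in culture against tissue 4 of the 6 H2A genes were lower, and the median of their differences was -0.52. The H2B medians were 3.84, 3.99, 4.37, 4.75, 5.05 and 5.14, and those of H4 were 3.92, 3.26, 3.92, 4.04, 3.94 and 3.83. Replicates of the members differed most in epiblast E5.75, where the root mean square SD over members was 0.99, and least in both rsEpiSC groups, where it was 0.27.

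**Figure D1:**
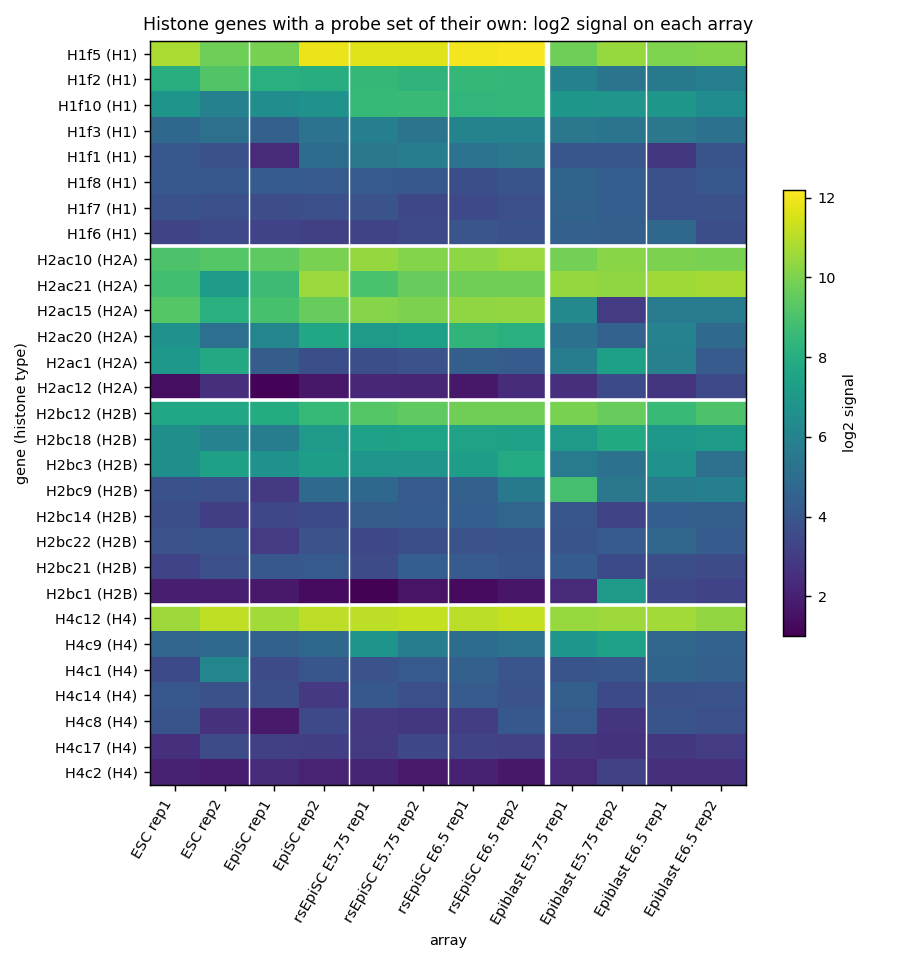
Log2 signal (colour) of the 29 histone genes (lines, grouped by histone type and ordered by mean) on the 12 arrays (columns, with a thick white line between cultured lines and tissue). H1f5 and H4c12 are bright on every array, H2ac15 and H1f2 are brighter on all cultured arrays than on all tissue arrays, and H2bc1 is bright on 1 tissue array only.

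Cultured lines were compared with epiblast tissue as the mean of the 4 cultured groups minus the mean of the 2 tissue groups. Of the 29 members 18 passed, 7 that rose and 11 that fell, in a comparison where 42.3% of all genes passed (18.1% rose and 24.2% fell). The median difference of the members was -0.12 and that of all genes -0.14, so the members as a group were not shifted to one side. Without regard to sign the median difference was 0.66 for members and 0.42 for all genes. Members thus had larger differences than all genes, in both directions, and the results are given gene by gene. The spread between replicates was larger as well. Its root mean square SD was 0.99 for members and 0.46 for all genes in epiblast E5.75. It was 0.72 and 0.34 in EpiSC, 0.64 and 0.41 in ESC, and 0.43 and 0.39 in epiblast E6.5. In rsEpiSC it was 0.27 and 0.26 at E5.75, and 0.27 and 0.24 at E6.5. The part of this spread in the larger differences was not tested. In bulk samples, fewer cells of a type cannot be told apart from less RNA per cell. H1 had 3 genes that rose and 2 that fell of 8, H2A had 2 and 3 of 6, H2B had 1 and 4 of 8, and H4 had 1 and 2 of 7. By brightness, the 15 members above the median gene had 7 that rose and 5 that fell. The 14 at or below it had 0 that rose and 6 that fell, so many of the falls are in dim genes. The split into rising and falling members moved with scaling, and the cause was not tested. It was 7 and 6 after quantile normalization, 8 and 6 after centring each array on its median, and 6 and 9 after scaling all arrays to one interquartile range. The share of all genes that passed moved as well, to 29.4%, 36.7% and 32.3% in the same order. Members whose 8 cultured arrays all lay above the 4 tissue arrays were H1f2 and H2ac15, 2 of 29 against 7.38% of all genes, and those with all cultured arrays below were H2ac12 and H2bc1, 2 of 29 against 10.0%.

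**Figure D2:**
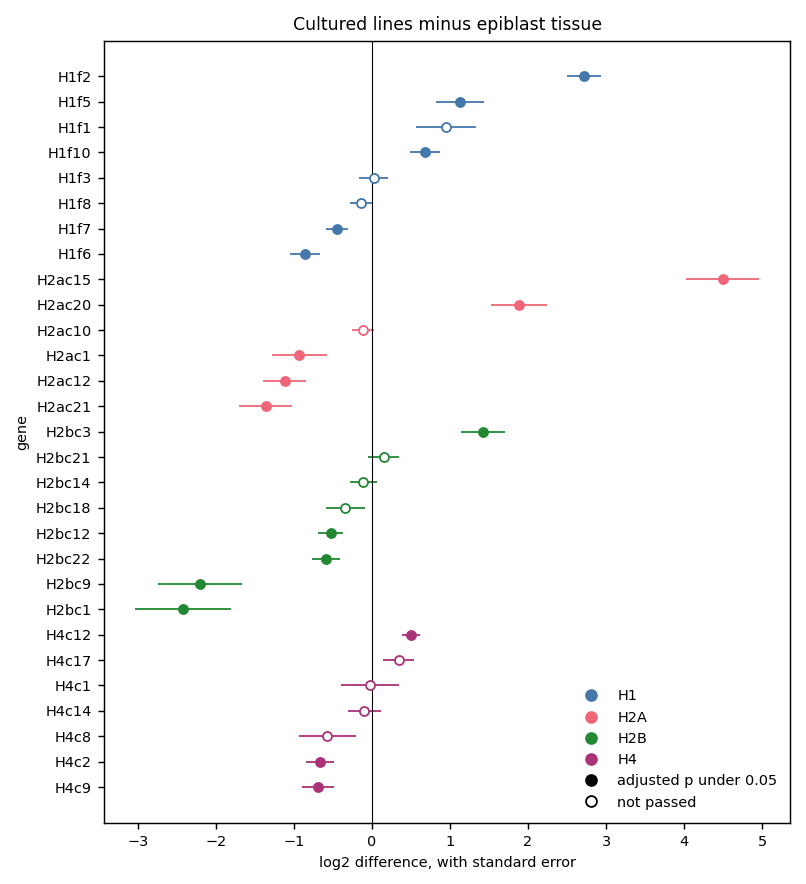
Difference of mean log2 signal between the 4 cultured groups and the 2 tissue groups for each histone gene, with its standard error, coloured by histone type; filled points passed (adjusted p under 0.05). H2ac15 and H1f2 stand highest at 4.49 and 2.72, and H2bc1 and H2bc9 lowest at -2.42 and -2.20.

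H2ac15, a canonical H2A gene, showed the greatest rise of all 22180 genes in culture against tissue. Its log2 signal on the cultured arrays was 9.24 and 8.09 in ESC, 8.93 and 9.58 in EpiSC, 10.18 and 9.99 in rsEpiSC from E5.75, and 10.35 and 10.37 in those from E6.5. On the tissue arrays it was 6.27 and 2.93 at E5.75 and 5.60 and 5.62 at E6.5. The lowest cultured array lay well above the highest tissue array, and the pair of epiblast E5.75 arrays stood far apart. The difference was 4.49 ± 0.47 (SE; limma adjusted p = 3.25e-05), and it ran from 3.65 to 5.32 with each array left out in turn. The signal of H2ac20, an H2A gene on chromosome 3, was 6.69 and 5.09 in ESC, 6.09 and 7.70 in EpiSC, 7.00 and 7.30 in rsEpiSC from E5.75, 8.33 and 8.13 in those from E6.5, 5.23 and 4.54 in epiblast E5.75, and 5.96 and 4.89 in epiblast E6.5. The 2nd ESC array fell among the tissue arrays, and the rsEpiSC E6.5 arrays were the highest. H2ac20 rose by 1.88 ± 0.36 (limma adjusted p = 0.00166).

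The other H2A genes did not rise. H2ac10, the brightest of the type, was 9.08 and 9.23 in ESC, 9.40 and 9.96 in EpiSC, 10.41 and 10.11 in rsEpiSC from E5.75, 10.29 and 10.53 in those from E6.5, 9.84 and 10.20 in epiblast E5.75, and 10.01 and 9.93 in epiblast E6.5. Its difference of -0.12 ± 0.14 did not pass. H2ac21, also on chromosome 3, was 8.80 and 7.12 in ESC, 8.66 and 10.51 in EpiSC, 8.98 and 9.58 in rsEpiSC from E5.75, 9.78 and 9.79 in those from E6.5, 10.43 and 10.34 in epiblast E5.75, and 10.62 and 10.67 in epiblast E6.5. All tissue arrays were high, and on the cultured side only 1 EpiSC array reached them. H2ac21 fell by 1.36 ± 0.34 (limma adjusted p = 0.00742), by 0.74 with the mean of its 2 probe sets and by 2.67 after scaling to one interquartile range. H2ac12 was dim throughout, between 1.09 and 2.49 in culture and between 2.50 and 3.53 in tissue, and fell by 1.12 ± 0.27, but did not pass after quantile normalization (-0.71, limma adjusted p = 0.0894) or scaling to one interquartile range (-0.58, adjusted p = 0.182).

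Among the linker histones, H1f2, which encodes the somatic subtype H1.2, differed on every array. It was 8.00 and 9.17 in ESC, 8.11 and 7.97 in EpiSC, 8.46 and 8.30 in rsEpiSC from E5.75, and 8.47 and 8.43 in those from E6.5. In tissue it was 5.91 and 5.29 at E5.75 and 5.52 and 5.85 at E6.5. All cultured arrays lay well above all tissue arrays, and the difference was 2.72 ± 0.22 (limma adjusted p = 6.31e-06), the 73rd highest of 22180 genes. It passed with each array left out and under every other setting tried, between 2.33 and 2.88. H1f5, subtype H1.5 and the brightest H1 gene, was 10.78 and 9.73 in ESC, 9.92 and 11.89 in EpiSC, 11.64 and 11.67 in rsEpiSC from E5.75, 12.01 and 12.08 in those from E6.5, 9.71 and 10.49 in epiblast E5.75, and 10.02 and 10.10 in epiblast E6.5. It rose by 1.13 ± 0.31 (limma adjusted p = 0.0115), but its direction turned to -0.22 (adjusted p = 0.581) after scaling to one interquartile range, and it did not pass without epiblast E5.75 replicate 1 (0.94, adjusted p = 0.061). One array each of ESC and EpiSC lay within the range of tissue, while the rsEpiSC arrays were higher.

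The other H1 genes were dimmer. H1f10, which lies outside the clusters and encodes a replication-independent linker histone, rose by 0.68 ± 0.19 (limma adjusted p = 0.0121), a call lost without epiblast E6.5 replicate 2 (0.56, adjusted p = 0.0598), after quantile normalization (0.43, adjusted p = 0.107) and after scaling to one interquartile range (0.15, adjusted p = 0.586). H1f6, the testis subtype H1t, was 3.13 to 3.95 on the cultured arrays and 4.42, 4.41, 4.75 and 3.67 on the tissue arrays, and fell by 0.86 ± 0.19 (limma adjusted p = 0.00362). H1f7, a spermatid subtype, fell by 0.45 ± 0.14 (limma adjusted p = 0.0268), and this call was lost with 6 of the 12 arrays left out singly (adjusted p from 0.0507 to 0.079) and after quantile normalization (-0.26, adjusted p = 0.217). H1f8, the oocyte subtype, and H1f3, subtype H1.3, differed by -0.14 ± 0.14 and 0.02 ± 0.19 and did not pass. H1f1, subtype H1.1, differed by 0.95 ± 0.38 and did not pass (limma adjusted p = 0.065).

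Of the 8 H2B genes, H2bc3 alone rose. It was 6.58 and 7.37 in ESC, 6.77 and 7.22 in EpiSC, 6.84 and 6.86 in rsEpiSC from E5.75, 7.27 and 7.85 in those from E6.5, 5.64 and 5.19 in epiblast E5.75, and 6.73 and 5.15 in epiblast E6.5. A single tissue array came up to the cultured arrays, and the difference was 1.42 ± 0.28 (limma adjusted p = 0.00223). H2bc9 was 3.84 and 3.74 in ESC, 2.91 and 4.82 in EpiSC, 4.77 and 4.16 in rsEpiSC from E5.75, 4.45 and 5.53 in those from E6.5, 8.90 and 5.43 in epiblast E5.75, and 5.76 and 5.82 in epiblast E6.5. Epiblast E5.75 replicate 1 stood far above the other tissue arrays. H2bc9 fell by 2.20 ± 0.54 (limma adjusted p = 0.00677), and without that array the difference was -1.34, which still passed. H2bc12, the brightest H2B gene, was 7.72 and 7.68 in ESC, 7.91 and 8.52 in EpiSC, 9.26 and 9.46 in rsEpiSC from E5.75, 9.79 and 9.79 in those from E6.5, 9.94 and 9.58 in epiblast E5.75, and 8.58 and 9.07 in epiblast E6.5. The lines were split, with ESC and EpiSC below the tissue and rsEpiSC at its level. H2bc12 fell by 0.53 ± 0.16 over all lines (limma adjusted p = 0.0186), a call lost without epiblast E5.75 replicate 1 (-0.44, adjusted p = 0.0703), without epiblast E6.5 replicate 2 (-0.40, adjusted p = 0.0921) and after centring on the median (-0.39, adjusted p = 0.0815), while scaling to one interquartile range gave -1.60. H2bc22 fell by 0.59 ± 0.18 and lost its call with 3 of the 12 arrays left out singly (limma adjusted p from 0.0505 to 0.0932) and under each of the 3 other scalings. H2bc14, H2bc18 and H2bc21, the last a gene also active in cells that no longer divide, differed by -0.11 ± 0.17, -0.34 ± 0.25 and 0.15 ± 0.20 and did not pass.

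Histone H4 genes encode an almost invariant protein. H4c12, the brightest, was 10.57 and 11.14 in ESC, 10.66 and 11.09 in EpiSC, 11.09 and 11.23 in rsEpiSC from E5.75, 11.05 and 11.23 in those from E6.5, 10.45 and 10.56 in epiblast E5.75, and 10.63 and 10.40 in epiblast E6.5. It rose by 0.50 ± 0.12 (limma adjusted p = 0.0082), but fell by 0.93 (adjusted p = 0.000452) after scaling to one interquartile range and did not pass after quantile normalization (0.27, adjusted p = 0.148). Its cultured and tissue arrays overlapped. H4c2, among the dimmest members, fell by 0.66 ± 0.18, and differed by -0.19 after quantile normalization and by -0.08 after scaling to one interquartile range, where it did not pass (limma adjusted p = 0.538 and 0.827). H4c9 fell by 0.69 ± 0.21 (limma adjusted p = 0.0211), and the call was lost without epiblast E5.75 replicate 2 (-0.55, adjusted p = 0.0774) or epiblast E6.5 replicate 1 (-0.64, adjusted p = 0.0707), and after centring (-0.55, adjusted p = 0.068). H4c1, H4c8, H4c14 and H4c17 differed by -0.03 ± 0.37, -0.57 ± 0.36, -0.10 ± 0.21 and 0.34 ± 0.20 and did not pass.

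H2ac1 and H2bc1, the divergent TH2A and TH2B genes whose windows are printed above, differed in their pattern over the groups, which was not tested. H2ac1 was 6.99 and 7.77 in ESC, 4.30 and 3.67 in EpiSC, 3.68 and 3.85 in rsEpiSC from E5.75, 4.41 and 4.28 in those from E6.5, 5.70 and 7.37 in epiblast E5.75, and 5.88 and 4.23 in epiblast E6.5. It was high in ESC, low in all later lines and scattered in tissue. H2bc1 was 1.94 and 1.96 in ESC, 1.78 and 1.33 in EpiSC, 1.06 and 1.59 in rsEpiSC from E5.75, 1.32 and 1.66 in those from E6.5, 2.32 and 7.05 in epiblast E5.75, and 3.40 and 3.25 in epiblast E6.5. It was near the bottom of the scale in every line, ESC included, and high only on epiblast E5.75 replicate 2. Over all lines against tissue H2ac1 fell by 0.93 ± 0.35 (limma adjusted p = 0.0494). This call was lost with 9 of the 12 arrays left out singly (differences from -1.34 to -0.51). It was also lost after quantile normalization (limma adjusted p = 0.0506), after centring (0.0985) and with the replicate number as a block (0.0618). The same held without the trend in variance (0.0515), with array weights (0.0531) and when every probe set was tested (0.0898). H2bc1 fell by 2.42 ± 0.61 (limma adjusted p = 0.00834), by 1.24 without epiblast E5.75 replicate 2, and by 2.01 after scaling to one interquartile range, where it did not pass (adjusted p = 0.0638).

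**Figure D3:**
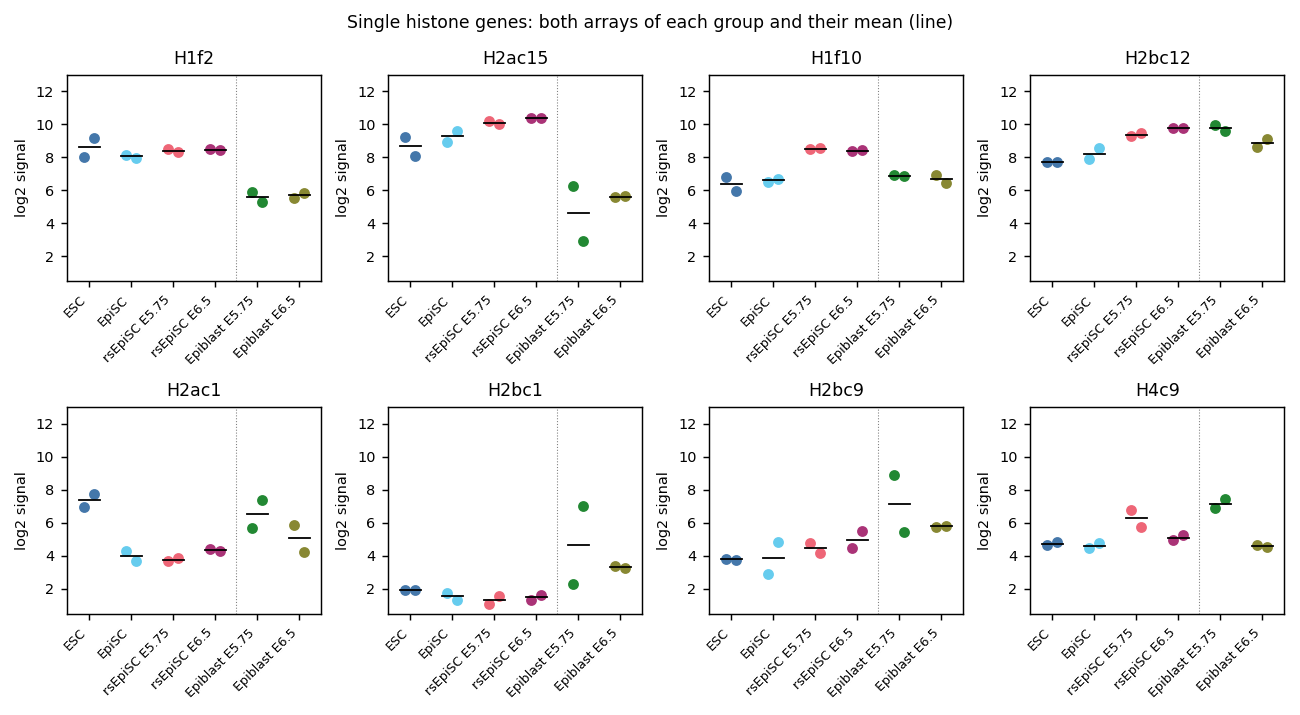
Log2 signal of 8 histone genes on both arrays of each group (points) with the group mean (line); the dotted line separates cultured lines from tissue. H1f2 and H2ac15 are higher on every cultured array, H1f10 is about 8.4 to 8.5 in rsEpiSC and below 7 elsewhere, H2ac1 is high in ESC and H2bc1 is not, and single epiblast E5.75 arrays stand out for H2bc1 and H2bc9.

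EpiSC were compared with ESC, that is, the primed with the naive state of pluripotency. H2ac1 was the only member of 29 that passed, where 6.29% of all genes passed. It fell by 3.39 ± 0.57 (limma adjusted p = 0.00318), from a mean of 7.38 to 3.99, the 78th lowest difference of 22180 genes, and it passed under all 16 other settings, between -3.79 and -3.00. The count of members was higher without ESC replicate 1 and without EpiSC replicate 1, fits for which the share of all genes is not given. H2bc1, the partner of H2ac1, differed by -0.40 ± 1.00 and did not pass. Of all members, 3 of the 29 reached an unadjusted p under 0.05, H2ac1 included, against 16.6% of all genes, and the median difference was 0.02 against 0.00 for all genes. H2ac21 differed by 1.62 ± 0.55 and H2ac10 by 0.53 ± 0.22, and H4c1 by -1.08 ± 0.60, its 2 ESC arrays lying at 3.52 and 6.16. None of these 3 passed (limma adjusted p = 0.125, 0.238 and 0.433). H1f2, H2ac15 and H4c12, bright in both lines, differed by -0.55 ± 0.36, 0.59 ± 0.76 and 0.02 ± 0.20 and did not pass.

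rsEpiSC and EpiSC, both derived at E5.75, differ in medium. In this comparison 3 of 29 members rose and 0 fell, where 3.87% of all genes passed (1.56% rose and 2.31% fell), and 8 of the 29 had an unadjusted p under 0.05, against 13.7% of all genes. The median difference of the members was 0.28 against 0.02 for all genes, and 21 of 29 were higher in rsEpiSC against 11580 of 22180 genes. Array medians of the members were 4.28 and 4.78 in EpiSC and 4.77 and 4.34 in rsEpiSC E5.75, so these overlapped. In 13 members both rsEpiSC arrays lay above both EpiSC arrays, against 24.7% of all genes, and in 0 they lay below, against 22.4%. The count of members that passed was lower without EpiSC replicate 1 or rsEpiSC E5.75 replicate 1 and higher without EpiSC replicate 2. The share of all genes in those fits is not given. The medians were above 0 in every type, 0.54 for H1, 0.41 for H2A, 0.38 for H2B and 0.24 for H4.

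H1f10 rose most clearly. It was 6.81 and 5.94 in ESC, 6.51 and 6.69 in EpiSC, 8.49 and 8.53 in rsEpiSC from E5.75, 8.37 and 8.41 in those from E6.5, 6.91 and 6.85 in epiblast E5.75, and 6.94 and 6.45 in epiblast E6.5. The 4 rsEpiSC arrays lay together, above all 8 other arrays. Its rise over EpiSC was 1.91 ± 0.30 (limma adjusted p = 0.00375), and it passed under all 16 other settings, between 1.78 and 2.01. H4c9 rose by 1.65 ± 0.34 (limma adjusted p = 0.0183) and H2bc12 by 1.15 ± 0.26 (limma adjusted p = 0.0265). These calls were less firm. H4c9 did not pass without either EpiSC array or without rsEpiSC E5.75 replicate 1 (adjusted p from 0.0546 to 0.219), and H2bc12 did not pass without EpiSC replicate 1 or either rsEpiSC E5.75 array (adjusted p from 0.13 to 0.234) or after scaling to one interquartile range (1.10, adjusted p = 0.107). H1f1 differed by 1.94 ± 0.63, with EpiSC arrays at 2.32 and 4.96 and rsEpiSC arrays at 5.43 and 5.75, and did not pass (limma adjusted p = 0.136).

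Genes of DNA replication were set beside the members, from a list of 21 S-phase genes. All 21 had a higher mean in rsEpiSC E5.75 than in EpiSC, with a median difference of 0.81. In 16 of them both rsEpiSC arrays lay above both EpiSC arrays, against 24.7% of all genes. The array medians of the list were 7.71 and 8.46 in EpiSC and 8.59 and 8.36 in rsEpiSC E5.75. EpiSC replicate 2 thus lay between the rsEpiSC arrays, and EpiSC replicate 1 below them. Of the 21, 3 rose: Mcm6 and Mcm3, subunits of the replicative helicase, by 1.23 ± 0.26 and 0.94 ± 0.23, and Uhrf1, which guides maintenance of DNA methylation, by 1.22 ± 0.28 (limma adjusted p = 0.0183, 0.0379 and 0.0291). Slbp, which binds the histone stem-loop, was 6.99 and 7.80 in EpiSC and 8.72 and 8.42 in rsEpiSC E5.75, and rose by 1.18 ± 0.27 (limma adjusted p = 0.0325). It was 1 of 14 genes of histone mRNA synthesis that passed, and the median of that list was 0.04. Of 16 histone chaperones 0 passed, 7 had an unadjusted p under 0.05, against 13.7% of all genes, and 14 were higher, with a median of 0.59. Slbp, Mcm3, Mcm6 and Uhrf1 each lost their call without EpiSC replicate 1 or without either rsEpiSC E5.75 array (limma adjusted p from 0.101 to 0.317). Slbp also lost it after centring (0.0574), after scaling to one interquartile range (0.0656), with the replicate number as a block (0.0507), when every probe set was tested (0.0842), and in fits on the cultured arrays (0.0596) or only the arrays compared (0.0849). Mcm3, Mcm6 and Uhrf1 lost theirs when every probe set was tested (0.0633 to 0.0858) and under other settings as well, Uhrf1 after scaling to one interquartile range (0.0649), Mcm6 in a fit on only the arrays compared (0.0517) and Mcm3 under both of these, after centring, with the replicate block and without the trend in variance (0.0551 to 0.0752). The part of cell cycle differences in the members' values was not tested.

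**Figure D4:**
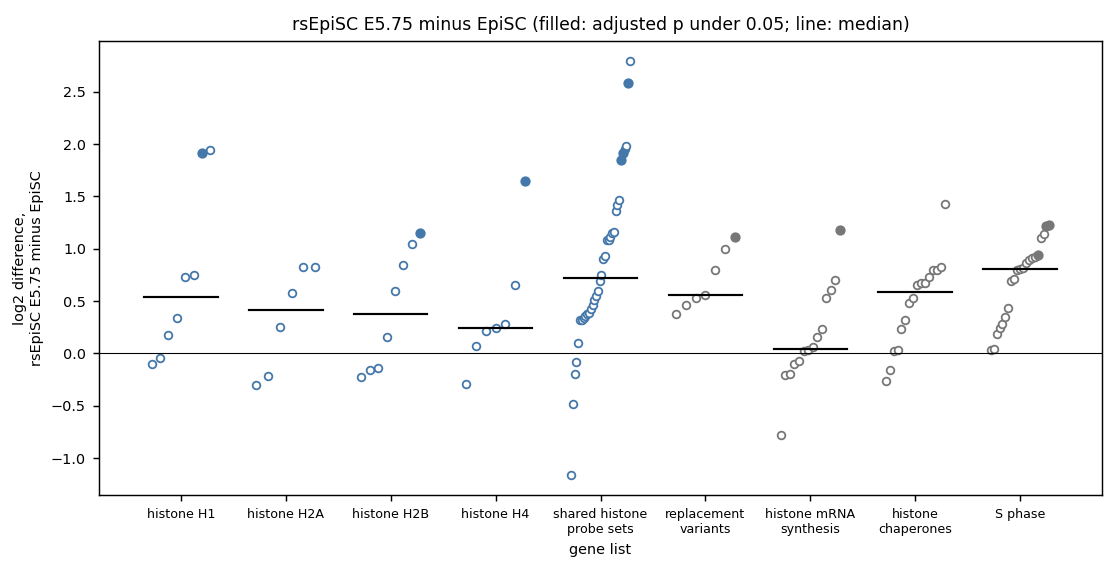
Difference of mean log2 signal, rsEpiSC E5.75 minus EpiSC, for each histone gene by type, each histone probe set that names several genes, and each gene of 4 related lists; filled points passed (adjusted p under 0.05) and lines are medians. Most histone points and all 21 S-phase genes lie above 0, with medians of 0.28 over the 29 members and 0.81 for S phase.

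Each rsEpiSC group was set against epiblast of its own stage. At E5.75, 7 members rose and 5 fell, where 21.5% of all genes passed (11.5% rose and 10.0% fell). The split was 5 and 3 after quantile normalization, 7 and 2 after centring and 6 and 7 after scaling to one interquartile range. Of all genes 14.8%, 19.5% and 19.7% passed under these scalings. At E6.5, 7 members rose and 0 fell, where 12.5% passed (6.72% rose and 5.78% fell). An unadjusted p under 0.05 was reached by 12 of the 29 against 28.9% of all genes. Scaling to one interquartile range gave 5 and 1, where 14.2% of all genes passed. H2ac15 was higher by 5.48 ± 0.76 at E5.75, and by 4.75 ± 0.76 at E6.5, the highest and 2nd highest differences of all genes with every array in the fit (limma adjusted p = 0.000699 and 0.00298). The value at E5.75 was 3.81 without epiblast E5.75 replicate 2, the array at 2.93, and 7.15 without replicate 1, the array at 6.27. H1f2 rose by 2.78 ± 0.36 and 2.76 ± 0.36 (adjusted p = 0.000472 and 0.000941), and both genes passed at both stages with each array left out. H1f10 rose by 1.63 ± 0.30 and 1.70 ± 0.30 (limma adjusted p = 0.00366 and 0.00491), a call lost at E6.5 without rsEpiSC E6.5 replicate 2 (adjusted p = 0.0565), and at E5.75 the value was 0.97 after scaling to one interquartile range.

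The remaining stage-matched calls were lost with single arrays left out. The counts of 12 members at E5.75 and 7 at E6.5 were lower with any of the 4 arrays left out. The share of all genes in those fits is not given, so a change in the members cannot be told there from a change in all genes. At E5.75, H1f5, H2ac20, H2bc3, H4c12, H1f6, H1f7, H2bc1 and H2bc9 each lost their call with 2 to 4 of the 4 arrays left out singly. H2ac20 and H2bc3 rose by 2.26 ± 0.58 and 1.44 ± 0.46, and H1f5 by 1.55 ± 0.50 (0.02 after scaling to one interquartile range), while H4c12 rose by 0.65 ± 0.20 but fell by 0.95 after scaling to one interquartile range. H2ac1 fell by 2.77 ± 0.57 at E5.75 (limma adjusted p = 0.00623), a call lost only without rsEpiSC E5.75 replicate 1 among the arrays left out (adjusted p = 0.0509). H2bc1 fell by 3.36 ± 1.00, by 0.99 without epiblast E5.75 replicate 2 and by 5.73 without epiblast E5.75 replicate 1. H2bc9 fell by 2.70 ± 0.87, by 4.43 without epiblast E5.75 replicate 2, and differed by -0.97 without epiblast E5.75 replicate 1, which did not pass (limma adjusted p = 0.359). At E6.5, H1f5, H2ac20, H2bc3 and H2bc12 rose by 1.98 ± 0.50, 2.81 ± 0.58, 1.62 ± 0.46 and 0.97 ± 0.26, and each lost its call with 3 or 4 of the 4 arrays left out singly. Without epiblast E6.5 replicate 2, H2bc3 differed by 0.83 (limma adjusted p = 0.254). H2bc12 differed by only 0.06 there after scaling to one interquartile range (limma adjusted p = 0.933).

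Between the stages, E6.5 against E5.75, differences were few. In rsEpiSC 0 of 29 members passed with limma, where 0.0857% of all genes passed, and 1 had an unadjusted p under 0.05, against 4.66% of all genes. That member was H4c9, at 6.81 and 5.76 at E5.75 and at 4.95 and 5.27 at E6.5, which differed by -1.18 ± 0.34 (limma adjusted p = 0.53). In epiblast tissue H4c9 was 6.88 and 7.42 at E5.75 and 4.69 and 4.52 at E6.5, and it fell by 2.54 ± 0.34 (limma adjusted p = 0.0468), the 4th lowest difference of 22180 genes and 1 of the 0.0225% that passed. In both materials the arrays of the later stage lay below those of the earlier one. Of 22180 genes, 4909 had this order in rsEpiSC and 4075 in epiblast. The tissue difference ran from -2.82 to -2.27 with each array left out in turn, and the tissue call was lost without epiblast E6.5 replicate 1 or replicate 2. It was also lost with the replicate number as a block (adjusted p = 0.0842). For H4c9 in all groups, ESC lay at 4.66 and 4.82 and EpiSC at 4.48 and 4.78, close to epiblast E6.5. The difference between the stage effects in rsEpiSC and in tissue was tested in limma as an interaction term, and 0 of 29 members passed it, with 3 at an unadjusted p under 0.05 against 8.65% of all genes, where 0.00902% of all genes passed.

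Many histone genes are so alike that their probe sets name several of them. Of 34 such probe sets 10 rose and 6 fell in culture against tissue, with 42.2% of all features passing when they were added to the fit. A probe set for 12 H2B genes, H2bc6 listed first, was at 12.00 and 12.01 in ESC, 12.01 and 12.42 in EpiSC, 12.57 and 12.51 in rsEpiSC from E5.75, 12.52 and 12.54 in those from E6.5, 9.51 and 10.54 in epiblast E5.75, and 9.87 and 10.31 in epiblast E6.5. All cultured arrays lay above all tissue arrays, and it rose by 2.26 ± 0.16 (limma adjusted p = 2.78e-06). In the same direction, a probe set for H2ac18, H2ac19 and H2ac20 rose by 1.75 ± 0.16, one for 4 H3 genes with H3c10 first rose by 2.57 ± 0.28, and one for 6 H4 genes with H4c17 first rose by 1.41 ± 0.25. All 4 passed with each array left out, but after scaling to one interquartile range the rise was 0.84 for the H2B probe set, 0.48 for H2ac18, H2ac19 and H2ac20, and 0.75 for the H4 probe set. The 12 H2B genes include H2bc9 and H2bc12, whose own probe sets fell, and H2bc14, whose own did not pass. The 6 H4 genes include H4c2 and H4c9, whose own probe sets fell, and H4c1, H4c8 and H4c17, whose own did not pass. A probe set naming 12 H2A genes, with H2ac15 and H2ac10 among them, lay between 9.90 and 10.65 in culture and between 9.61 and 10.09 in tissue. It rose by 0.46 ± 0.11 (limma adjusted p = 0.00743) but was lower in culture by -0.80 (adjusted p = 0.000163) after scaling to one interquartile range. H2ac15 has its own probe set, but how far its signal is free of these copies cannot be told from the deposited values.

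Probe sets that name the same genes could differ in opposite directions. There were 10 H2A genes named together by several probe sets, which differ in the gene listed first. With H2ac4 first, the signal was 6.78 and 6.34 in ESC, 6.54 and 7.62 in EpiSC, 8.83 and 9.03 in rsEpiSC from E5.75, 8.04 and 8.30 in those from E6.5, 4.93 and 5.09 in epiblast E5.75, and 5.49 and 5.85 in epiblast E6.5, and it rose by 2.35 ± 0.21 (limma adjusted p = 1.35e-05). With H2ac11 first, it was 5.11 and 5.02 in ESC, 5.48 and 6.65 in EpiSC, 8.37 and 7.58 in rsEpiSC from E5.75, 7.61 and 7.78 in those from E6.5, 11.10 and 9.87 in epiblast E5.75, and 9.87 and 9.53 in epiblast E6.5, and it fell by 3.39 ± 0.27 (limma adjusted p = 6.35e-06). Both separated all cultured from all tissue arrays, in opposite directions, and both kept their call under every setting tried. The same held for 2 probe sets that name 8 H3 genes, of which one with H3c15 first rose by 1.96 ± 0.21 and one of the 5 with H3c13 first fell by 2.32 ± 0.32 (limma adjusted p = 4.05e-05 and 0.000215). The deposited values do not tell which of the named genes a probe set read. No direction is therefore given for these H2A and H3 genes as a group, or for the H2B and H4 genes named together above.

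**Figure D5:**
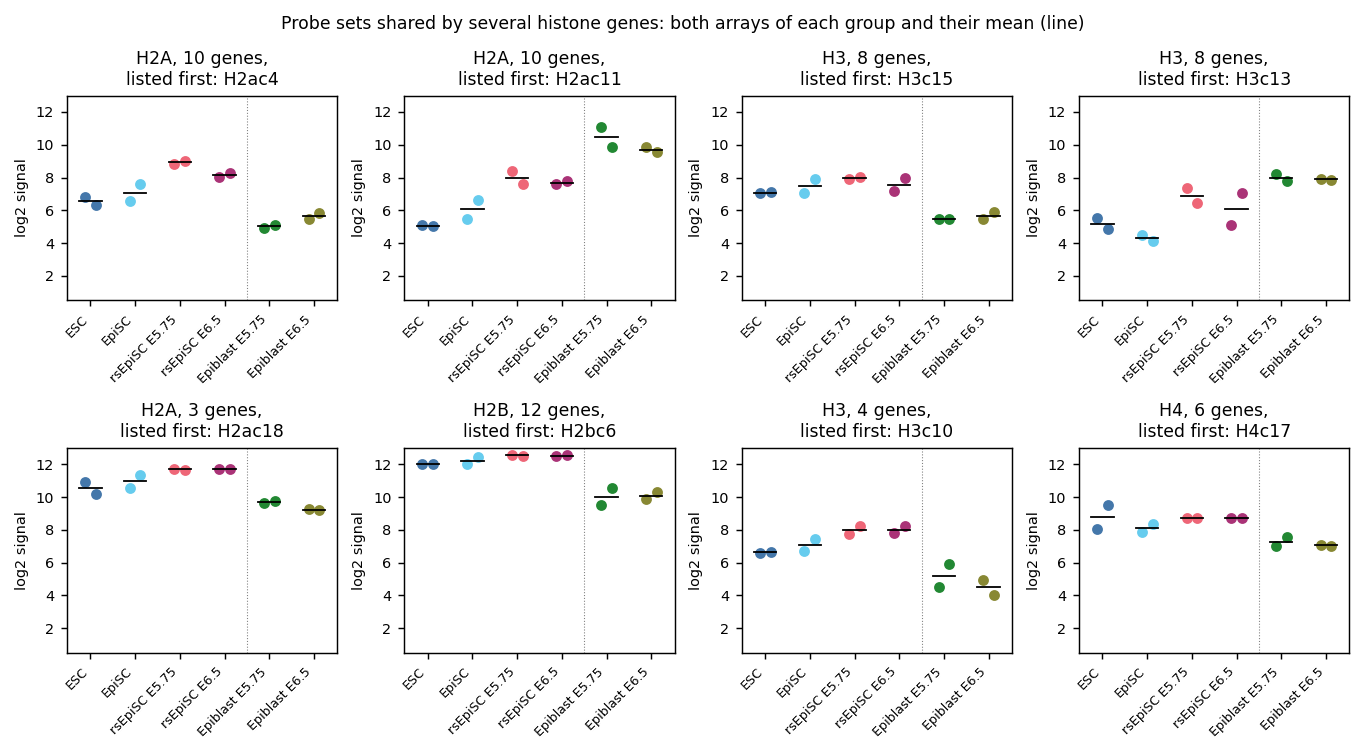
Log2 signal of 8 probe sets that name several histone genes, on both arrays of each group (points) with the group mean (line). The H2A probe set with H2ac4 first and the H3 probe set with H3c15 first are higher in culture, those with H2ac11 and H3c13 first are higher in tissue, and all 4 have a higher mean in rsEpiSC E5.75 than in EpiSC.

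In rsEpiSC E5.75 against EpiSC most of these probe sets were higher. Of 34, 30 were higher in rsEpiSC, with a median of 0.72, and 3 rose where 3.84% of all features passed. They were the H2A probe sets with H2ac4 first (1.85 ± 0.35) and with H2ac11 first (1.91 ± 0.44) and the H3 probe set with H3c13 first described above (2.58 ± 0.52; limma adjusted p = 0.0104, 0.0331 and 0.0166). Each lost its call with 3 of the 4 arrays left out singly (limma adjusted p from 0.0688 to 0.312). In EpiSC against ESC 1 of the 34 passed, an H2A probe set of the same 10 genes with H2ac23 first, where 6.26% of all features passed, and it fell by 1.49 ± 0.36 (limma adjusted p = 0.0283). That call was lost without ESC replicate 2 or EpiSC replicate 1 (adjusted p from 0.189 to 0.252, with differences from -1.96 to -1.03 over the arrays left out), after quantile normalization (0.0824), after scaling to one interquartile range (0.11) and in a fit on only the arrays compared (0.108).

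Genes that make, process or carry histones were described from lists. In culture against tissue, where 42.3% of all genes passed (18.1% rose and 24.2% fell), 4 of 7 replacement variants rose and 0 fell, with a median of 1.25. H2ax, the variant that marks DNA breaks, was 10.60 to 11.91 on the cultured arrays and 7.95 to 8.85 on the tissue arrays, and rose by 3.12 ± 0.16 (limma adjusted p = 3.87e-07). H2az2, Cenpa, the histone of centromeres, and Macroh2a1 rose by 2.22 ± 0.27, 1.96 ± 0.28 and 1.25 ± 0.16, and all 4 passed with each array left out. After scaling to one interquartile range H2ax and H2az2 rose by 2.04 and 1.33. Of 14 genes of histone mRNA synthesis 3 rose and 5 fell. Npat was 7.05 to 7.70 in culture and 8.16 to 8.47 in tissue and fell by 0.97 ± 0.15 (limma adjusted p = 0.000476), and Slbp fell by 0.84 ± 0.17. Casp8ap2, a partner of NPAT, and Eri1, an exonuclease of histone mRNA, each fell by 1.10, with SEs of 0.19 and 0.26. Of 16 chaperones 3 rose and 7 fell, among them Asf1b, which rose by 1.21 ± 0.25, and Asf1a, its close relative, which fell by 0.86 ± 0.15. Scaling to one interquartile range made these falls greater, -1.75 for Npat, -1.80 for Slbp, -1.90 for Casp8ap2, -1.87 for Eri1 and -2.16 for Asf1a. Of 21 S-phase genes 4 rose and 5 fell, a share near that of all genes, with a median of -0.02, and the rise of Uhrf1 (0.89) turned to -0.03 after scaling to one interquartile range. In EpiSC against ESC Macroh2a2, a variant tied to silent chromatin, rose by 1.51 ± 0.25 and Atrx, a remodeller that helps deposit H3.3, fell by 1.53 ± 0.32 (limma adjusted p = 0.00272 and 0.0139). The Atrx call was lost with 3 of the 4 arrays left out singly (adjusted p from 0.0638 to 0.0791).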

How the data were processed

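Log2 signal of 41345 probe sets on 12 arrays, 6 groups of 2, was used as deposited by the authors. Per the submitters' processing notes it was made with oligo and RMA, which corrects background, normalizes arrays by quantiles and summarizes probes; for both, the version is not given in the sources used here. A human array is named in the labels, but the identifiers matched a mouse annotation table. Of the probe sets 23521 name 1 gene, 1814 several and 16010 none, and each of 22180 genes was represented by its brightest probe set with 1 symbol. limma 3.58.1 in R 4.3.3 was fitted to the 6 group means of all genes (eBayes with trend, Benjamini-Hochberg over all genes, adjusted p under 0.05); the 6 residual degrees of freedom are shared by all groups. Probe sets naming several histone genes were tested in a second fit that added them. The number of arrays limits the precision. Alternatives were quantile normalization, centring, one interquartile range, a replicate block, leaving out each array, a filter on dim genes, every probe set tested, the mean of a gene's probe sets, eBayes without trend, array weights, fits on only the arrays compared or only the cultured arrays, and counting shared probe sets as members. The script was tested on simulated data with known changes. Members and lists were chosen with earlier results of these data known. Any member could be named. Values per array were given for up to 4 passing members with the greatest rise and fall per comparison, for the brightest and most variable member of each type and for germ cell types, and from each list up to 4 passing genes. Promoter windows came from RefSeq (GRCm38.p6). H1f0 was not analysed here, and strain and passage labels, which count up from array to array, were not used. Figures were drawn with matplotlib 3.10.9.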

Additional observations from a re-analysis of the deposited data

How the results depend on the processing

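Of the members called in culture against tissue, H1f2, H2ac15, H2ac20, H2ac21, H2bc3 and H2bc9 passed under all 22 other settings, and 11 of the 18 passed with each array left out in turn. Directions turned only after scaling all arrays to one interquartile range, a setting chosen after seeing the data: in culture against tissue H1f5 to -0.22, H4c12 to -0.93, Uhrf1 to -0.03 and the H2A probe set of 12 genes to -0.80, and in rsEpiSC E5.75 against epiblast H4c12 to -0.95 and that probe set to -0.54. The cause was not tested. With the 34 shared probe sets counted beside the 29 members, which enlarges the set, 34 passed in culture against tissue, where 42.2% of all features passed. In EpiSC against ESC 2 passed (6.26% of all features), and in rsEpiSC E5.75 against EpiSC 6 (3.84%). In rsEpiSC against epiblast 23 passed at E5.75 and 19 at E6.5. These last counts and those that follow are given without the share of all genes under the same setting. A change in the members cannot be told there from a change in all genes. Array weights gave 7 in rsEpiSC E5.75 against epiblast, 5 in rsEpiSC E5.75 against EpiSC and 0 between the epiblast stages. Testing every probe set, which adds features, gave 5 and 4 in rsEpiSC against epiblast at E5.75 and E6.5, 1 in rsEpiSC E5.75 against EpiSC and 0 between the epiblast stages. Fits on only the arrays compared gave 2 between the rsEpiSC stages and 0 between the epiblast stages, and centring gave 0 between the epiblast stages. Leaving out 1 array gave 14 to 18 in culture against tissue, 4 to 8 and 2 to 5 in rsEpiSC against epiblast at E5.75 and E6.5, 1 to 3 in EpiSC against ESC, 1 to 5 in rsEpiSC E5.75 against EpiSC, and 0 to 2 between the epiblast stages. The lone array left in a group then takes its spread from the other groups. Samples with the same replicate number did not deviate together over all genes (15 correlations between -0.26 and 0.06). No shift shared by replicate number was seen, but this cannot show that the samples are unpaired. With the replicate number as a block the count was 18 in culture against tissue. In rsEpiSC against epiblast it was 10 at E5.75 and 8 at E6.5. It was 3 in rsEpiSC E5.75 against EpiSC, 1 in EpiSC against ESC and 0 between the epiblast stages.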
